A study of Mus musculus with 16 samples.

Results

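The mitochondrial ribosomal proteins were taken as every gene whose probe name on the array began with Mrpl (large subunit) or Mrps (small subunit) followed by a digit. This gave 75 genes, measured by 125 of the 41174 probes, among 15667 genes tested. Of the 75 genes, 46 carry a large subunit name and 29 a small subunit name. One value per gene came from its probe with the highest mean signal, and all 75 of these probes were well above background on all 16 arrays, so no gene entered through 1 group alone.

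Left ventricular RNA was measured on 16 one-colour Agilent arrays, 1 mouse per array, on a C57BL/6 N background. NOS3-TG mice carried a nitric oxide synthase 3 transgene whose expression the alpha-myosin heavy chain (alpha-MHC) promoter directs to cardiomyocytes, and wild-type (WT) mice were their littermates. Each genotype was studied intact (baseline) and 10 weeks after transverse aortic constriction (TAC), an operation that narrows the aorta and overloads the ventricle, with 4 mice per group, 2 male and 2 female, of matched age and weight. The baseline mice were intact rather than sham-operated, and TAC and baseline arrays lay on different slides, so pressure overload, surgery and slide cannot be told apart.

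Mitochondria keep a ribosome of their own. Its RNA comes from the mitochondrial genome, while its proteins are encoded in the nucleus, made in the cytosol and imported. It makes only the few respiratory chain and ATP synthase subunits that the mitochondrial genome encodes, and the heart, which relies on oxidative phosphorylation, holds many mitochondria. Some of the proteins descend from those of the bacterial ribosome and others are found only in mitochondria.

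All levels below are log2 processed signals minus the 75th percentile of the same array, and a difference of 1 is a doubling. They serve to compare arrays for 1 gene, not to rank genes. Unless stated, "fell" and "rose" mean a limma adjusted p under 0.05 over all 15667 genes. The 75th percentile of the signal ran from 1053 to 1491 over the arrays, and 44.2% to 68.1% of probes were well above background. The transgene was visible on every array, with Nos3 between 6.94 and 8.02 in NOS3-TG mice and between 0.96 and 1.85 in WT mice. Nppb, the B-type natriuretic peptide gene of the loaded heart, was 4.51 ± 0.45 (SD, n = 4) at WT baseline and 7.45 ± 0.42 after TAC. All 12 cardiomyocyte markers, such as Myh6, Tnnt2 and Tnni3, passed the filter on low signals.

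The first comparison asked how the mitochondrial ribosomal genes of WT ventricle stood after TAC. Of the 75 genes, 35 fell and 0 rose, against 17.5% of all genes that fell and 10.9% that rose. At an unadjusted p under 0.05, 44 of the 75 differed, against 40.3% of all genes. The falls ran from -0.21 to -0.63, which is a fold of 0.866 to 0.646. The median difference of the 75 genes was -0.24, against -0.06 over all genes, and 71 of 75 lay below zero. At 35 genes, not the same set as the called ones, every TAC array was below every baseline array, against 17.3% of all genes, and 31 genes both fell and had no overlap. The heat map of all genes by array shows how much of the list shifted in WT mice after TAC and how little of it lay above the baseline level.

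**Figure D1:**
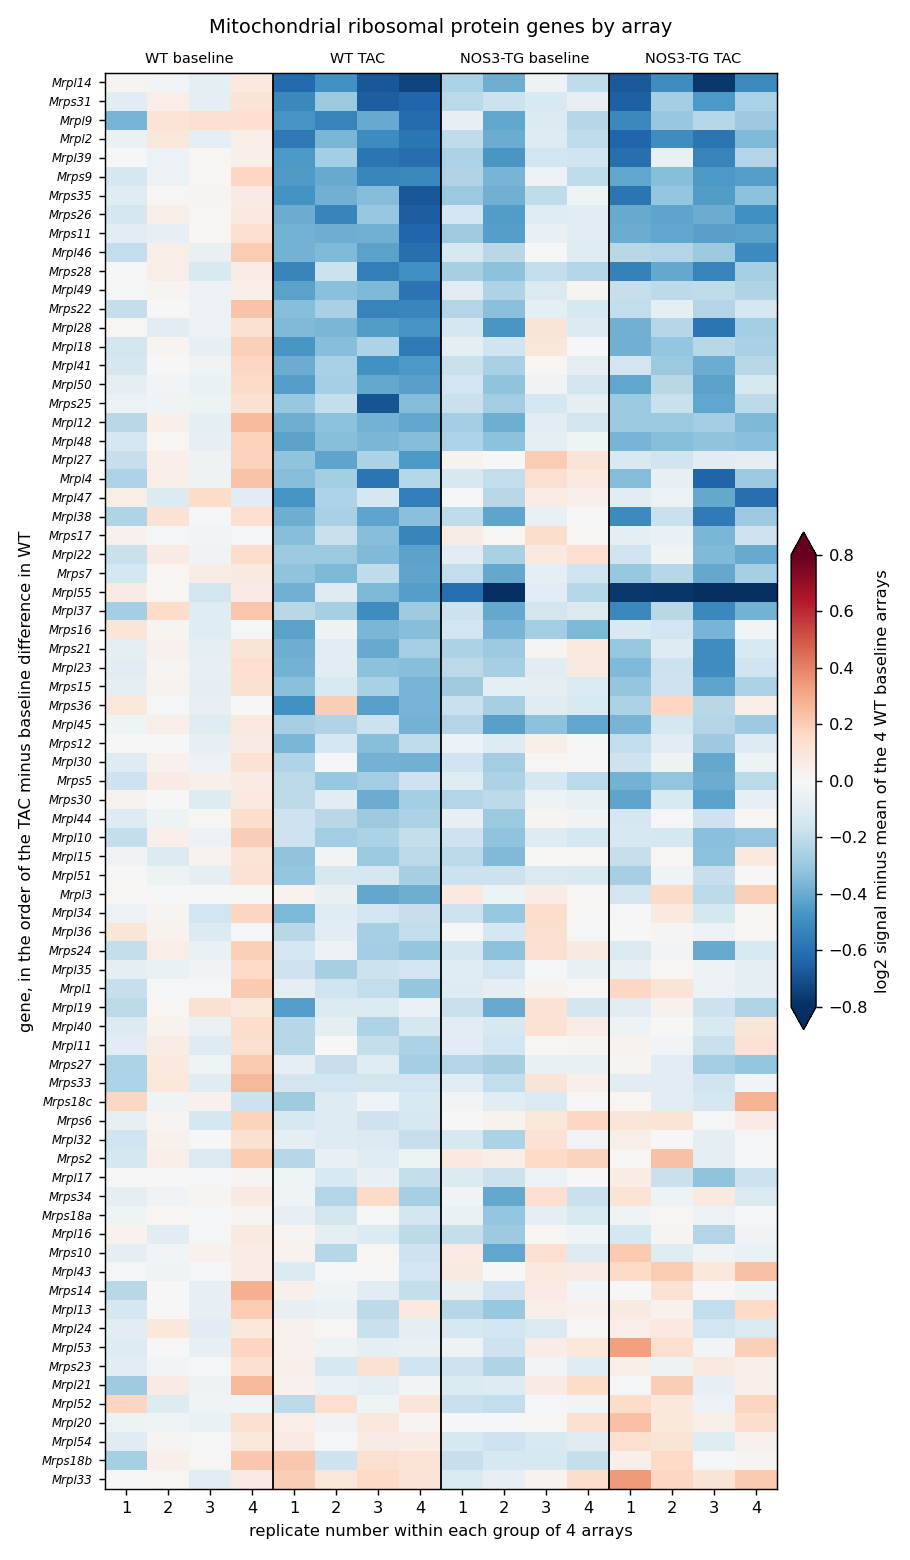
Each row is 1 of the 75 mitochondrial ribosomal protein genes and each column 1 of the 16 arrays; colour is the log2 signal minus the mean of the 4 WT baseline arrays, limited to the range of the colour bar. The 4 WT TAC arrays are mostly blue, with 71 of 75 gene means below zero, and Mrpl55 is lowest in NOS3-TG arrays.

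Of the large subunit genes, 20 of 46 fell, with a median difference of -0.23, and of the small subunit genes, 15 of 29 fell, with a median of -0.26. Among genes listed here as having a bacterial homologue 20 of 47 fell (median -0.21). Among all other genes, counted here as mitochondria-specific, 15 of 28 fell (median -0.29). No difference between these classes was tested.

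Mrpl14, a large subunit protein at the face that meets the small subunit and a docking site of the assembly factor Malsu1, changed most. Its level was 6.35, 6.30, 6.25 and 6.40 on the WT baseline arrays and 5.70, 5.84, 5.65 and 5.59 on the WT TAC arrays. The groups did not overlap and lay far apart for their spread. The difference was -0.63 ± 0.09 (SE), with an adjusted p of 0.000571. Mrps31, a mitochondria-specific small subunit protein, read 4.82, 4.95, 4.82 and 5.01 at baseline and 4.38, 4.60, 4.24 and 4.26 after TAC. All 4 TAC values were lower, with WT TAC replicate 2 nearest to baseline (difference -0.53 ± 0.09, SE, adjusted p 0.00104).

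Mrpl2, which sits by the site where peptide bonds are formed, read 3.62, 3.76, 3.59 and 3.71 at baseline and 3.10, 3.31, 3.17 and 3.08 after TAC. Again the groups were apart (difference -0.51 ± 0.09, SE, adjusted p 0.00128). Mrps9, a small subunit protein that reaches toward the tRNA held in the decoding groove, read 3.94, 4.02, 4.09 and 4.23 at baseline and 3.62, 3.66, 3.54 and 3.55 after TAC. The TAC arrays were the tighter group, all below baseline (difference -0.47 ± 0.08, SE, adjusted p 0.00153).

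Mrpl9, the counterpart of a bacterial protein that reaches outward from the large subunit, fell with less room to spare. Its baseline arrays read 1.09, 1.58, 1.59 and 1.60 and its TAC arrays 0.99, 0.93, 1.06 and 0.85. WT baseline replicate 1 stood just above the highest TAC array and well below the other 3 baseline arrays (difference -0.51 ± 0.12, SE, adjusted p 0.00883). Mrpl39, a mitochondria-specific large subunit protein with a fold related to a tRNA synthetase, read 3.57, 3.52, 3.58 and 3.60 at baseline and 3.11, 3.30, 2.98 and 2.96 after TAC. Baseline arrays were closely grouped and TAC arrays spread below them (difference -0.48 ± 0.12, SE, adjusted p 0.0093).

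**Figure D2:**
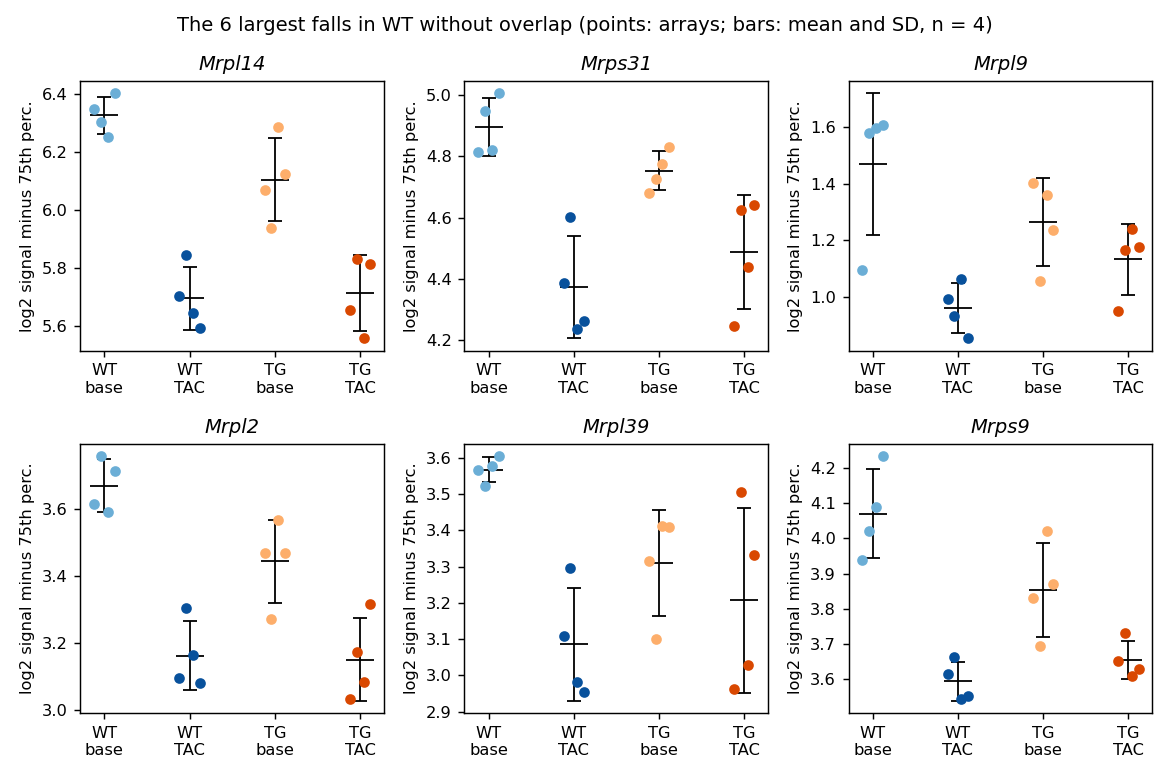
Log2 signal minus the array's 75th percentile for the 6 genes with the largest falls in WT, by group (points are arrays, bars the mean and SD, n = 4; the axes do not start at zero). In every panel the WT TAC arrays lie below all WT baseline arrays, and NOS3-TG baseline arrays lie on average below WT baseline arrays.

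Other genes of known place in the ribosome shifted less. Mrpl12, which forms the stalk that recruits translation factors, read 5.75, 6.01, 5.89 and 6.22 at WT baseline and 5.58, 5.63, 5.59 and 5.55 after TAC. The TAC arrays were nearly level with each other and under all baseline arrays (difference -0.38 ± 0.10, SE, adjusted p 0.0109). Mrps12, the protein of the decoding centre, went from 4.57, 4.58, 4.51 and 4.64 to 4.21, 4.44, 4.24 and 4.37. All TAC arrays were lower, by a smaller step (difference -0.26 ± 0.07, SE, adjusted p 0.0114).

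Mrpl41, a large subunit protein near the exit of the peptide tunnel, read 4.88, 5.01, 4.98 and 5.18 at baseline and 4.61, 4.75, 4.53 and 4.55 after TAC. It fell without overlap (difference -0.40 ± 0.09, SE, adjusted p 0.00559). Mrps28 read 5.18, 5.23, 5.05 and 5.24 at baseline and 4.65, 5.00, 4.62 and 4.68 after TAC. WT TAC replicate 2 stood apart from the other 3 TAC arrays and still lay below baseline (difference -0.44 ± 0.08, SE, adjusted p 0.00263). Mrpl27, near the peptidyl transferase site, read 4.16, 4.38, 4.30 and 4.52 at baseline and 4.01, 3.92, 4.08 and 3.88 after TAC. It also fell without overlap (difference -0.36 ± 0.08, SE, adjusted p 0.0072).

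Mrpl45, a large subunit protein on the side that faces the inner membrane, read 4.35, 4.44, 4.29 and 4.46 at baseline and 4.12, 4.14, 4.21 and 4.01 after TAC. Its fall was smaller and without overlap (difference -0.26 ± 0.08, SE, adjusted p 0.0232).

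Variants of Mrps22, Mrps14, Mrpl3 and Mrpl44 cause human mitochondrial disease with cardiomyopathy. Mrps22, a mitochondria-specific small subunit protein, read 1.49, 1.68, 1.63 and 1.91 at WT baseline and 1.34, 1.42, 1.14 and 1.16 after TAC. The groups did not overlap (difference -0.41 ± 0.10, SE, adjusted p 0.00696). Of these 4 genes only Mrps22 passed the test in WT mice on the probe used. The 2 other probes of Mrpl44 differed by -0.43 and -0.38, and the 3 other probes of Mrpl3 by -0.53 to -0.29. All of these lay further below zero than the probes used, and no adjusted p is given for them here.

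Mrpl44, which has a fold like that of an RNA-cutting enzyme, read 3.40, 3.46, 3.51 and 3.64 at baseline and 3.34, 3.28, 3.21 and 3.25 after TAC. The groups were apart, but the difference of -0.23 ± 0.08 (SE) had an adjusted p of 0.0531. Mrpl3 read 4.92, 4.90, 4.91 and 4.90 at baseline and 4.94, 4.85, 4.49 and 4.52 after TAC. Its TAC arrays were split, with the pair of slide 2 at the baseline level and the pair of slide 3, scanned on another day, well below (difference -0.21 ± 0.11, SE, adjusted p 0.192). Mrps14 read 1.80, 2.02, 1.95 and 2.30 at baseline and 2.06, 1.98, 1.93 and 1.83 after TAC, with full overlap (difference -0.07 ± 0.10, SE, adjusted p 0.657).

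Mrps18a, Mrps18b and Mrps18c are 3 paralogs of a single bacterial protein; Mrps18a sits in the large subunit in spite of its name. Mrps18a read 4.13, 4.18, 4.16 and 4.18 at WT baseline and 4.09, 4.02, 4.15 and 4.01 after TAC, Mrps18c read 3.29, 3.09, 3.16 and 2.95 and then 2.83, 3.02, 3.09 and 3.00, and Mrps18b read -1.34, -1.03, -1.06 and -0.86 and then -0.86, -1.23, -0.94 and -0.96. All 3 overlapped between groups. Their differences were -0.09, -0.14 and 0.07, with adjusted p from 0.308 to 0.642, so none of the 3 passed the test.

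Mrps30 also sits in the large subunit, and Mrps36 is known as a part of the 2-oxoglutarate dehydrogenase complex rather than of the ribosome. Mrps30 read 3.17, 3.14, 3.04 and 3.22 at baseline and 2.93, 3.06, 2.75 and 2.87 after TAC (difference -0.24 ± 0.09, SE, adjusted p 0.0551). Mrps36 read 3.88, 3.77, 3.73 and 3.78 at baseline and 3.31, 3.99, 3.35 and 3.42 after TAC (difference -0.27 ± 0.13, SE, adjusted p 0.124). Both overlapped, Mrps36 through WT TAC replicate 2 alone, which was its highest WT array.

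The remaining genes named by rule were Mrpl43, Mrps34 and Mrps10, which are proteins of the large subunit, the small subunit and the head of the small subunit. Mrpl43 read 5.20, 5.18, 5.20 and 5.27 at WT baseline and 5.10, 5.20, 5.22 and 5.06 after TAC. Mrps34 read 5.30, 5.34, 5.40 and 5.45 and then 5.34, 5.14, 5.52 and 5.11. Mrps10 read 2.49, 2.54, 2.59 and 2.62 and then 2.59, 2.33, 2.58 and 2.40. All 3 overlapped, with differences of -0.07, -0.10 and -0.09 and adjusted p from 0.434 to 0.533.

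Mrpl33, a small large subunit protein picked here after its values were seen, stood highest in the order of WT differences. It read 6.04, 6.05, 5.95 and 6.09 at baseline and 6.23, 6.12, 6.19 and 6.14 after TAC. Every TAC array was higher, which held for 1 of the 75 genes and 10.2% of all genes, and the step was small (difference 0.14 ± 0.08, SE, adjusted p 0.185).

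Where a gene had more than 1 probe, the others mostly pointed the same way: among the genes that fell in WT mice, 11 had other probes that could be tested, and 14 of these 15 probes had a difference below zero. The exception was a probe of Mrpl38, at 0.28. Leaving out each array in turn, 23 of the 35 genes kept their call every time, and none changed sign. Without slide 3, which held 2 of the 4 TAC arrays of each genotype and was scanned on another day, 6 genes were called lower: Mrpl2, Mrpl14, Mrpl49, Mrps26, Mrps31 and Mrps35. The share of all genes called lower in that smaller fit is not given here, so these 6 cannot be set against it. The mean of the array medians was -0.23 over the WT TAC arrays of slide 2 and -0.27 over those of slide 3.

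Cell type markers moved in WT mice over the same arrays. Summed signals of the 12 cardiomyocyte markers, relative to the 75th percentile, ran from 2690 to 3320 at WT baseline and from 2210 to 2943 after TAC, and 3 of 12 fell (Ryr2, Ckm and Pln; median difference of the list -0.26). Sums of the 10 macrophage markers ran from 66.0 to 81.3 and from 88.4 to 113.6 (6 of 10 rose), and sums of the 10 fibroblast markers from 171.9 to 276.0 and from 224.4 to 339.3 (4 of 10 rose). Endothelial sums ran from 76.5 to 86.9 and from 80.4 to 87.8 (4 of 10 rose), and smooth muscle and pericyte sums from 111.7 to 158.6 and from 129.8 to 182.7 (1 of 8 rose, 1 fell). Of 8 lymphocyte markers 5 could be tested (Cd79a, Ms4a1 and Cd8a did not pass the filter on low signals) and 0 passed (2 had an unadjusted p under 0.05), with sums from 0.519 to 0.598 and from 0.396 to 0.880. The part of these shifts in the results was not tested, and in whole tissue fewer cardiomyocytes and less RNA per cardiomyocyte cannot be told apart.

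The promoters of these genes are shown because nuclear genes of mitochondrial proteins often carry sites for NRF1, for ETS family factors such as GABP, and for YY1. RefSeq windows (GRCm38.p6) of 250 bases before to 50 after the gene's start were matched by symbol for 66 of the 75 genes. Each was searched on both strands for GCGCA, any base and GCGC (NRF1-like), CCGGAAG (ETS-like) and ATGGCGGC (YY1-like), and for TATAAA; a match of the first that reads the same on both strands was counted once, and overlapping matches of different motifs were all counted. The windows below hold the 250 bases before the start, 5′ to 3′ on the gene's strand, with the match in capitals. They are Mrpl9 (chr3:94443086-94443335, plus strand) and Mrpl39 (chr16:84735245-84735494, minus strand), 2 of the largest falls with an NRF1-like match, and Mrps22 (chr9:98601680-98601929, minus strand) with an ETS-like match.
Mrpl9: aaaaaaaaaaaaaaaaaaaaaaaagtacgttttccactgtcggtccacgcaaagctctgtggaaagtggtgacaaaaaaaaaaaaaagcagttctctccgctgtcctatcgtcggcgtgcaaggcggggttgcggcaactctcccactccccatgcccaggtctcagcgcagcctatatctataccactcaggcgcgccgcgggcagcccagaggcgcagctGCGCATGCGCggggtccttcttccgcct
Mrpl39: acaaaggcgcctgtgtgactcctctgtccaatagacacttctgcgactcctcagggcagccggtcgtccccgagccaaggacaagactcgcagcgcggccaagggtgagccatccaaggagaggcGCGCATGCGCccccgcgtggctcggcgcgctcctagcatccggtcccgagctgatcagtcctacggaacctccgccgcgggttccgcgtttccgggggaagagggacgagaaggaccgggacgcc
Mrps22: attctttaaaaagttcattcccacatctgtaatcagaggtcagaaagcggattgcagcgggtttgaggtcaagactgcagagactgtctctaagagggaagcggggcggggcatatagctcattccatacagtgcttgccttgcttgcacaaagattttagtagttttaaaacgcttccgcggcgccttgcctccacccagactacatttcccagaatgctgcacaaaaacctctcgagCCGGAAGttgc

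The NRF1-like letters stood in 12 of 66 windows (18.2%), against 10.6% of the 10743 tested genes with a window and 5.19% of all 27025 windows. The ETS-like letters stood in 24 (36.4%), against 18.4% and 9.93%, and the YY1-like letters in 12 (18.2%), against 5.33% and 2.60%. These counts include the 50 bases after the start. Most of the YY1-like matches reached into those bases, so they cannot all be read as letters of the promoter. TATAAA stood in 5 (7.58%), against 10.0% and 15.7%. At least 1 of the first 3 motifs was found in 39 windows (59.1%), against 30.1% of tested genes and 15.8% of all.

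Genes that fell and genes that did not pass the test both held matches. Of the 31 genes with a window that fell in WT mice, 8 held the NRF1-like, 10 the ETS-like and 7 the YY1-like letters; of the 35 other genes, 4, 14 and 5 did. These are counts of letters in a short window, and no test was made of them. Of the factors themselves, Nrf1 (difference 0.06), Gabpa (-0.13) and Yy1 (-0.18) did not pass the test in WT mice, with adjusted p of 0.675, 0.402 and 0.311.

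Many of these genes start close to a gene on the other strand, and whether such pairs share a promoter was not tested. A divergent neighbour whose start lay within 1000 bases was found for 25 of the 66 genes (37.9%), against 18.2% of tested genes. The neighbour was tested in 20 pairs, 1 of which, Mrps11 and Mrpl46, joins a pair of these genes. Of the 19 neighbours outside the list, 14 lay below zero in WT mice, as did 8943 of all 15667 genes; 4 fell, beside 17.5% of all genes, and 1, Mitd1 beside Mrpl30, rose. The stretches between the starts of 3 pairs in which both genes fell are shown, 5′ to 3′ on the strand of the gene named first: Mrpl14 and Tmem63b (chr17:45686219-45686348, plus strand), Mrps12 and Sars2 (chr7:28741822-28741967, minus strand) and Mrps11 and Mrpl46 (chr7:78783090-78783130, plus strand). No motif searched is found in these 3 stretches.
Mrpl14 and Tmem63b: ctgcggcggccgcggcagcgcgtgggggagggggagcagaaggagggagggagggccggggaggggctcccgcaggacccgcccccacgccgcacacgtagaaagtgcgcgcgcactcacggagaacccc
Mrps12 and Sars2: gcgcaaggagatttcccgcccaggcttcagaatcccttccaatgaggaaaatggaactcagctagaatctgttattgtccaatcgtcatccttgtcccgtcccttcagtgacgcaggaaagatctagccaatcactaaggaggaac
Mrps11 and Mrpl46: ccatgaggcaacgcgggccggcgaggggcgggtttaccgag

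Mrps11 and Mrpl46, 1 protein of each subunit with starts 42 bases apart, differed by -0.45 ± 0.09 (SE, adjusted p 0.00429) and -0.44 ± 0.10 (SE, adjusted p 0.00663) after TAC in WT mice. Tmem63b, a membrane channel gene, differed by -0.60 ± 0.13 (SE, adjusted p 0.00529) beside the -0.63 of Mrpl14. Sars2, the mitochondrial seryl-tRNA synthetase, differed by -0.69 ± 0.10 (SE, adjusted p 0.000582) beside the -0.26 of Mrps12. In NOS3-TG mice Sars2 fell too (-0.57, adjusted p 0.0041).

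The second comparison asked the same of NOS3-TG ventricle. There 2 of the 75 genes fell and 0 rose, against 5.36% of all genes that fell and 6.48% that rose. The median difference was -0.06, with 44 of 75 genes below zero, and the median over all genes was -0.00095. The median of the 75 was -0.12 without NOS3-TG baseline replicate 2, -0.01 without NOS3-TG baseline replicate 3 and -0.02 without NOS3-TG TAC replicate 3, and with median scaling it was 0.000168, so its size and sign rested on these choices. At an unadjusted p under 0.05, 12 of the 75 differed, against 27.8% of all genes. Of the 35 genes that fell in WT mice, 31 lay below zero in NOS3-TG mice and 2 fell there too.

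Mrpl14 read 6.07, 5.94, 6.29 and 6.13 on the NOS3-TG baseline arrays and 5.66, 5.83, 5.56 and 5.82 on the NOS3-TG TAC arrays. The groups did not overlap, and the difference was -0.39 ± 0.09 (SE, adjusted p 0.0166). Mrpl2 read 3.47, 3.27, 3.57 and 3.47 and then 3.03, 3.17, 3.08 and 3.32, with NOS3-TG TAC replicate 4 above NOS3-TG baseline replicate 2 (difference -0.29 ± 0.09, SE, adjusted p 0.0429). Neither call held under every other setting: without NOS3-TG baseline replicate 2, NOS3-TG TAC replicate 3 and NOS3-TG TAC replicate 4, the arrays with the extreme shares of probes above background, 0 genes were called. Without NOS3-TG baseline replicate 2 alone 7 were called lower, and each other array left out gave 1 or 2. With 1 of the 16 arrays left out at a time, Mrpl14 kept its call in 16 of 16 fits and Mrpl2 in 4 of 16.

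Mrps31 read 4.68, 4.73, 4.78 and 4.83 at NOS3-TG baseline and 4.25, 4.62, 4.44 and 4.64 after TAC. The groups were apart without passing the test (difference -0.27, adjusted p 0.0613). Mrps9 read 3.83, 3.70, 4.02 and 3.87 and then 3.65, 3.73, 3.61 and 3.63, with slight overlap (difference -0.20, adjusted p 0.138). Mrpl39 read 3.31, 3.10, 3.41 and 3.41 and then 2.96, 3.51, 3.03 and 3.33. Its TAC arrays were split by sex, the 2 males low and the 2 females at the baseline level (difference -0.10, adjusted p 0.614). Mrpl9 read 1.40, 1.06, 1.36 and 1.24 and then 0.95, 1.17, 1.24 and 1.18, and overlapped (difference -0.13, adjusted p 0.524).

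Mrpl12 read 5.68, 5.58, 5.88 and 5.82 at NOS3-TG baseline and 5.67, 5.67, 5.70 and 5.61 after TAC (difference -0.08, adjusted p 0.617). Mrps12 read 4.53, 4.47, 4.63 and 4.58 and then 4.38, 4.49, 4.29 and 4.47 (difference -0.14, adjusted p 0.181). The stalk protein thus overlapped fully and the decoding centre protein in part. Mrpl41 read 4.83, 4.75, 5.02 and 4.93 and then 4.86, 4.71, 4.61 and 4.79 (difference -0.14, adjusted p 0.327). Mrps28 read 4.91, 4.85, 4.98 and 4.94 and then 4.63, 4.76, 4.64 and 4.91 (difference -0.18, adjusted p 0.173). Both overlapped through 1 or 2 high TAC arrays.

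Mrps22, Mrpl45 and Mrps16 fell in WT mice and had differences of the other sign in NOS3-TG mice. Mrps22 read 1.44, 1.34, 1.60 and 1.55 at NOS3-TG baseline and 1.48, 1.60, 1.44 and 1.54 after TAC (difference 0.03, adjusted p 0.858). Mrpl45 read 4.15, 3.95, 4.06 and 3.97 and then 4.01, 4.25, 4.15 and 4.09 (difference 0.09, adjusted p 0.463). Both overlapped. Mrps16, a small subunit protein of bacterial descent chosen after its values were seen, had a WT difference of -0.29 ± 0.10 (SE, adjusted p 0.0398) and a NOS3-TG difference of 0.12 ± 0.10 (SE, adjusted p 0.453). The fourth gene of this kind was Mrpl51, at -0.21 and 0.02. The other Mrpl45 probe did not change sign, at -0.50 in WT mice and -0.07 in NOS3-TG mice. With 1 array left out at a time, the WT call of Mrps22 held in 16 of 16 fits. That of Mrpl45 held in 13, that of Mrps16 in 9 and that of Mrpl51 in 5.

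Of the cardiomyopathy genes, Mrpl44 read 3.44, 3.21, 3.52 and 3.47 at NOS3-TG baseline and 3.37, 3.49, 3.33 and 3.52 after TAC, and Mrpl3 read 4.99, 4.86, 4.96 and 4.92 and then 4.76, 5.06, 4.70 and 5.10. Mrps14 read 1.96, 1.86, 2.08 and 1.99 and then 2.02, 2.13, 2.02 and 1.99. All 3 overlapped, with differences of 0.02, -0.03 and 0.07. For Mrpl3, as for Mrpl39, the males were the low pair after TAC.

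Mrps18a read 4.11, 3.85, 4.09 and 4.04 and then 4.13, 4.17, 4.12 and 4.16, and Mrps18b read -1.26, -1.20, -1.20 and -1.26 and then -1.03, -0.91, -1.09 and -1.05. For both, every NOS3-TG TAC array was above every NOS3-TG baseline array, with differences of 0.12 (adjusted p 0.259) and 0.21 (adjusted p 0.21) that did not pass the test. Mrps18c read 3.10, 3.03, 3.01 and 3.13 and then 3.13, 3.03, 2.98 and 3.40, Mrps30 read 2.91, 2.93, 3.10 and 3.08 and then 2.72, 3.02, 2.71 and 3.08, and Mrps36 read 3.61, 3.52, 3.69 and 3.67 and then 3.54, 3.96, 3.57 and 3.84. These 3 overlapped, and NOS3-TG females were the high pair after TAC for Mrps30 and Mrps36.

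In NOS3-TG mice the cardiomyocyte marker sums ran from 2392 to 3273 at baseline and from 2190 to 2780 after TAC (0 of 12 passed, 3 at an unadjusted p under 0.05). Fibroblast sums ran from 182.3 to 260.1 and from 207.9 to 311.8, and macrophage sums from 92.6 to 111.6 and from 105.9 to 121.7 (1 and 2 of 10 rose). Smooth muscle and pericyte sums, from 100.3 to 121.2 at baseline and from 146.7 to 180.5 after TAC, did not overlap (1 of 8 rose, Acta2, and 1 fell, Myh11). Endothelial sums ran from 61.8 to 82.2 and from 69.7 to 80.6 (1 of 10 rose), and lymphocyte sums from 0.630 to 1.06 and from 0.652 to 1.09 (0 of 5 passed, 0 at an unadjusted p under 0.05). The macrophage sums of NOS3-TG baseline arrays were thus all above those of WT baseline arrays, and the part of these marker shifts in the results was not tested.

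In all, 6 genes were lower without overlap in NOS3-TG mice after TAC, against 7.45% of all genes: Mrpl14, Mrpl18, Mrpl27, Mrpl46, Mrps17 and Mrps31. Higher without overlap were 3, against 9.18%: Mrps18a, Mrps18b and Mrpl43. Mrpl55, a large subunit protein chosen after its values were seen, varied most. It read 5.07, 4.16, 5.58 and 5.44 at NOS3-TG baseline and 4.90, 4.89, 4.70 and 4.68 after TAC, against 5.74, 5.69, 5.53 and 5.73 at WT baseline and 5.29, 5.57, 5.31 and 5.23 after TAC. Its NOS3-TG TAC arrays lay below all WT arrays, and none of its differences passed the test (adjusted p of 0.344 for genotype after TAC).

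Averaged over both genotypes, 34 genes fell and 1 rose, against 20.9% and 16.3% of all genes. The median difference was -0.13, and 32 of the 34 had also fallen in WT mice, a comparison that shares those arrays. Mrpl14 (-0.51, adjusted p 9.6e-05), Mrpl2 (-0.40, adjusted p 0.000332) and Mrps31 (-0.40, adjusted p 0.00035) changed most. The 1 gene that rose was Mrpl33, by 0.17 ± 0.05 (SE, adjusted p 0.0209); it read 5.92, 5.97, 6.06 and 6.17 at NOS3-TG baseline and 6.37, 6.20, 6.14 and 6.24 after TAC. In both genotypes the TAC arrays of Mrpl33 were at the high end, with overlap in NOS3-TG mice only. Without slide 3, 11 genes were called lower and 0 higher, and the shares of all genes in that fit are not given here.

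**Figure D3:**
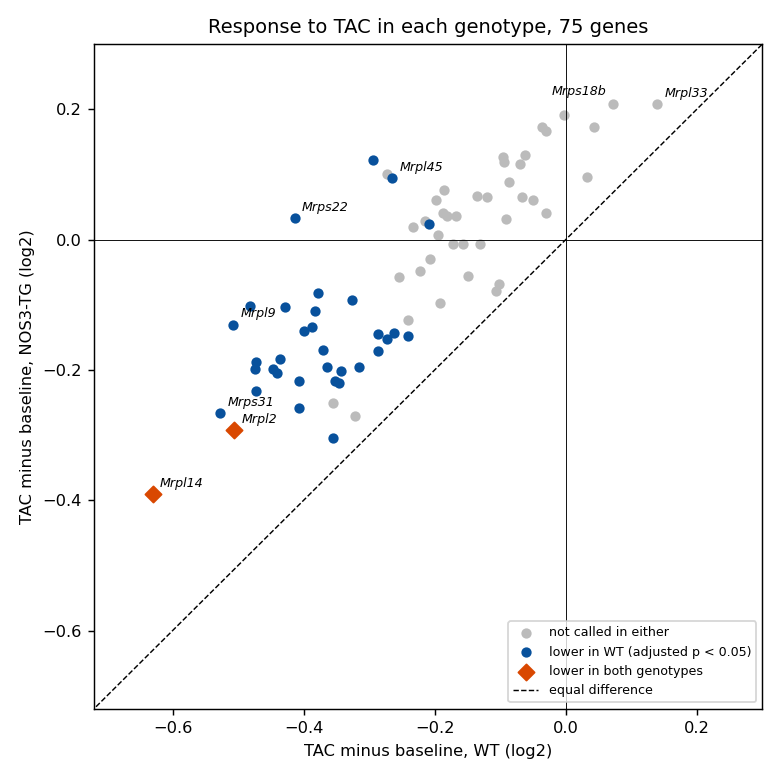
Each point is 1 of the 75 genes: the TAC minus baseline difference (log2) in WT mice on the horizontal axis and in NOS3-TG mice on the vertical axis, with the dashed line marking equal differences. All 75 points lie above the line, and 2 genes, Mrpl14 and Mrpl2, fell in both genotypes.

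The test of whether TAC acted differently in the 2 genotypes, genotype by TAC, called 0 of the 75 genes and 0 of 15667 (0%) by limma. At an unadjusted p under 0.05 it had 11 of the 75 and 1168 of all genes (7.46%), and the lowest adjusted p among the 75 was 0.652. The difference between the responses, NOS3-TG minus WT, was above zero for all 75 genes, with a median of 0.19; over all genes the median was 0.07 and 61.3% were above zero. The plot of the responses in both genotypes shows the same, with the order of the genes alike (r = 0.836 across the 75 genes, which share arrays and are not independent).

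Mrps22 had the smallest unadjusted p, with a difference between responses of 0.45 ± 0.13 (SE, adjusted p 0.652), followed by Mrpl45 at 0.36 ± 0.11 (SE, adjusted p 0.652). The sign over the list held for 69 to 75 genes in the other settings. It was 71 genes, with a median of 0.14, without NOS3-TG baseline replicate 2, the array with the lowest share of probes above background (44.2%). Without the 3 arrays of extreme share it was 74 genes, with a median of 0.17, and 51.3% of all genes were then above zero.

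Genotype at baseline called 0 of the 75 genes, against 0.428% of all genes, and 14 had an unadjusted p under 0.05 (12.3% of all genes). The median difference, NOS3-TG minus WT, was -0.12, with 68 genes below zero, and over all genes it was -0.06. Without NOS3-TG baseline replicate 2, the array with the lowest share of probes above background, the median of the 75 was -0.06. The gene with the smallest p was Mrpl45, whose NOS3-TG baseline arrays (4.15, 3.95, 4.06 and 3.97) were all below the WT baseline arrays (4.35, 4.44, 4.29 and 4.46). The difference of -0.35 ± 0.08 (SE) had an adjusted p of 0.0711. Mrps28 came next, also without overlap (-0.26 ± 0.08, SE, adjusted p 0.229), and in all 9 genes were lower without overlap, against 6.08% of all genes.

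Genotype after TAC called 0 of the 75 genes, against 0.294% of all genes, and 9 had an unadjusted p under 0.05 (12.3% of all genes). The median difference was 0.09 (0.05 without WT TAC replicate 4), and 9 genes were higher in NOS3-TG mice without overlap, against 3.59% of all genes. Mrpl43 had the smallest p: its NOS3-TG TAC arrays read 5.37, 5.42, 5.30 and 5.45, all above the WT TAC arrays (difference 0.24 ± 0.06, SE, adjusted p 0.128). At NOS3-TG baseline Mrpl43 had read 5.29, 5.22, 5.29 and 5.28. Mrpl27 came next, with 4.37, 4.33, 4.54 and 4.44 at NOS3-TG baseline and 4.22, 4.18, 4.25 and 4.26 after TAC, again above all WT TAC arrays (difference 0.25 ± 0.08, SE, adjusted p 0.246).

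Every slide held both genotypes, so the genotype difference could also be read within a slide. The median of the 75 differences, NOS3-TG minus WT, was -0.16 on slide 1 and -0.07 on slide 4, the baseline slides, and 0.09 on slide 2 and 0.08 on slide 3, the TAC slides. On every slide the position of an array was fixed by genotype and sex, so position cannot be told apart from these. By array, the median of the 75 genes ran from -0.08 to 0.12 at WT baseline, relative to the WT baseline mean of each gene, and from -0.29 to -0.16 in WT mice after TAC. In NOS3-TG mice it ran from -0.26 to -0.01 at baseline and from -0.24 to -0.08 after TAC. The WT groups were thus apart and the NOS3-TG groups overlapped, and NOS3-TG baseline replicate 2 was the lowest of its group.

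**Figure D4:**
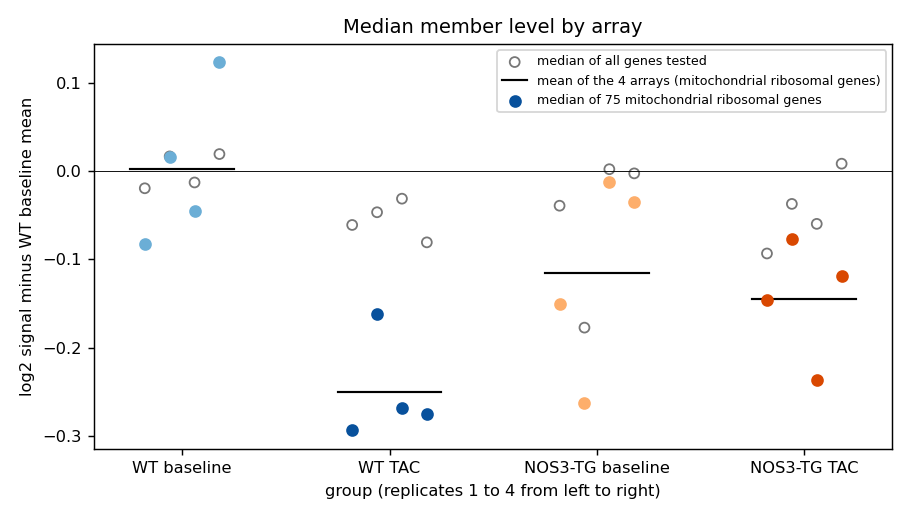
Filled points are the median, on each array, of the log2 signal of the 75 genes minus each gene's WT baseline mean; open points are the same over all genes tested, and lines are means of 4 arrays. WT TAC arrays (-0.29 to -0.16) lie below all WT baseline arrays (-0.08 to 0.12), while the NOS3-TG groups overlap.

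Sex was tested over all 16 arrays, and 0 of the 75 genes passed, against 1.33% of all genes; 7 had an unadjusted p under 0.05 (15.9% of all genes). The median difference, female minus male, was 0.04, from 0.02 to 0.07 with 1 array left out at a time. Mrps34 had the smallest p (-0.19 ± 0.07, SE, adjusted p 0.167), followed by Mrps10 (-0.17 ± 0.07, SE, adjusted p 0.22). Mrps34 read 5.34, 4.97, 5.51 and 5.20 at NOS3-TG baseline and 5.48, 5.33, 5.45 and 5.26 after TAC, and Mrps10 read 2.62, 2.15, 2.69 and 2.46 and then 2.77, 2.46, 2.53 and 2.51. In both of these groups the 2 males were above the 2 females for each gene, but males and females overlapped over the 16 arrays.

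The genes also varied together among the arrays of a group. The correlation of a gene with the mean of the other 74, over the 16 arrays, had a median of 0.769, and 0.679 once group means were removed. With the same mean, all genes tested had medians of 0.200 and 0.228. Correlated with the mean of these 75 genes, oxidative phosphorylation subunits had medians of 0.852 and 0.807. Cytosolic ribosomal proteins had 0.475 and 0.619 with that mean. The medians of the oxidative phosphorylation subunits were thus above those of the 75 genes themselves. Arrays share slide and scaling, so these are descriptions. With group means left in, Mrpl50 (0.940), Mrpl41 (0.931) and Mrps9 (0.924) followed the list most closely. Mrpl33 (-0.27), Mrps18b (-0.06) and Mrpl20 (-0.0018) then did so least. Once group means were removed, Mrps24 (0.974) was the highest and Mrps18c (-0.15) the lowest, while Mrpl33 (0.456) and Mrpl20 (0.453) were above zero.

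Other genes of mitochondrial translation were counted in lists set beside these, and over all genes 17.5% fell and 10.9% rose in WT mice. Mitoribosomal proteins with other names had 4 of 6 lower in WT mice and 0 higher: Ptcd3 (-0.47), Mrpl58, a peptide release factor built into the ribosome (-0.46), Dap3 (-0.32) and Gadd45gip1 (-0.30). Mrpl42 and Mrpl57, which carry older names on the array and so fell outside the rule, differed by -0.49 (adjusted p 0.00126) and 0.07 (adjusted p 0.554). Of the translation factors 6 of 15 fell, led by the elongation factor Tufm (-0.57), the initiation factor Mtif2 (-0.46), the mRNA-binding Lrpprc (-0.44) and the release factor Mtrf1 (-0.40). Of the mitochondrial tRNA synthetases and amidotransferase subunits 9 of 20 fell, with Sars2 (-0.69), Hars2 (-0.60), Gatc (-0.49) and Nars2 (-0.49) at the front.

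Assembly and rRNA modification factors had 14 of 28 lower, among them the GTPase Gtpbp10 (-0.77), the rRNA methyltransferases Mrm1 (-0.75) and Mrm2 (-0.74), and Mettl15 (-0.67). Malsu1, the partner of Mrpl14, differed by -0.19 without passing the test (adjusted p 0.112). Of the genes of mitochondrial DNA transcription and maintenance 8 of 17 fell, such as Mterf2 (-0.66), the polymerase subunit Polg2 (-0.59), Hsd17b10 (-0.51) and Prorp (-0.49). None of these lists had a gene that rose in WT mice.

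Of the nuclear-encoded oxidative phosphorylation subunits 46 of 81 fell in WT mice, with a median of -0.33. Sdhc (-0.79), Ndufs1 (-0.63), Sdha (-0.61) and Atp5g2 (-0.55) changed most. Cytosolic ribosomal proteins, of the ribosome that translates nuclear mRNA, had 4 of 78 lower (Rpsa, Rps29, Rpl23a and Rps2) and a median of -0.06, the same as all genes. Of 11 regulators of mitochondrial genes 3 fell, the coactivators Ppargc1a (-0.76) and Ppargc1b (-0.62) and the receptor Esrra (-0.45), and 2 rose, Pprc1 (0.49) and Myc (0.79).

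In NOS3-TG mice the counts were 0 of 6 for proteins with other names, 0 of 15 for translation factors, 2 of 20 for tRNA synthetases (Sars2 and Gatc) and 1 of 17 for DNA transcription and maintenance (Polg2), all lower. Assembly factors had 2 lower (Eral1 and Nsun4) and 1 higher (Trub2) of 28, oxidative phosphorylation subunits 6 lower and 1 higher (Cox7c) of 81, and cytosolic ribosomal proteins and regulators 0 of 78 and 0 of 11. Over all genes 5.36% were lower and 6.48% higher in NOS3-TG mice. At an unadjusted p under 0.05 the 4 lists with no call had 0, 0, 4 and 2 genes, in the order given. The difference between the genotypes in the response to TAC passed the test for no gene, as given above. Genotype at baseline called 1 of the 6 proteins with other names lower, against 0.428% of all genes called in either direction.

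**Figure D5:**
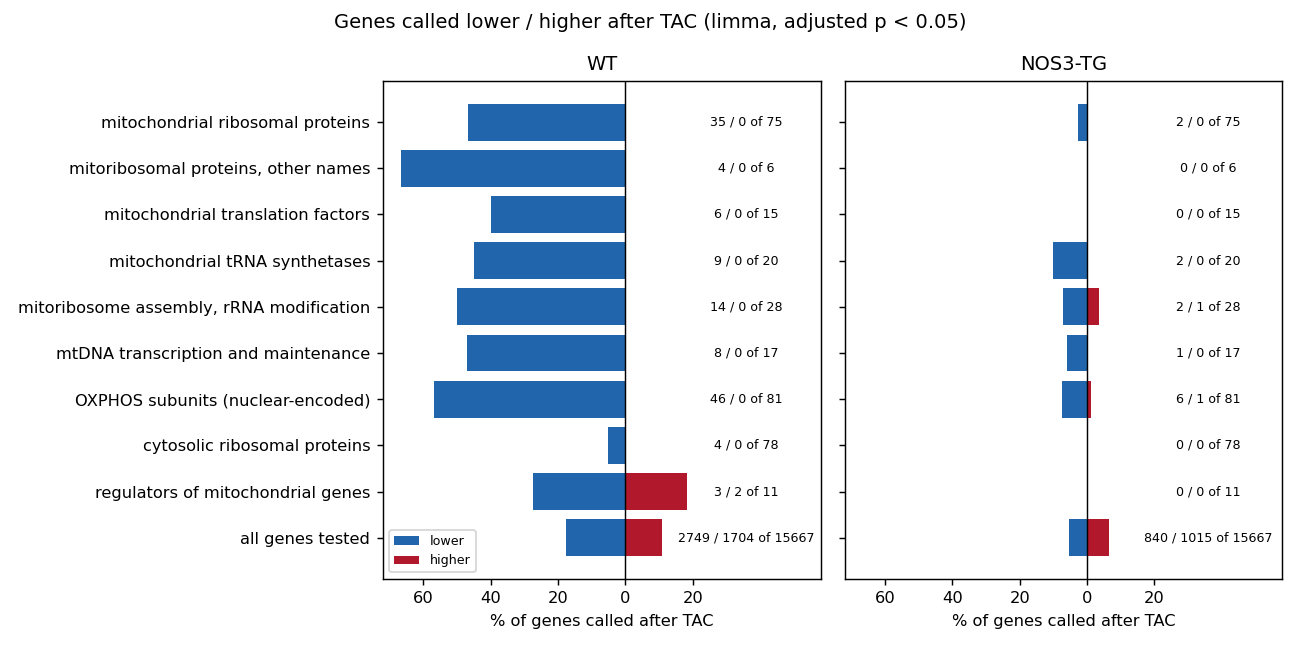
Bars are the percentage of each list's genes called lower (left, blue) or higher (right, red) after TAC in WT and in NOS3-TG mice by limma at an adjusted p under 0.05, with the counts lower / higher of tested printed beside them. In WT mice 35 of 75 mitochondrial ribosomal and 46 of 81 oxidative phosphorylation genes were lower, against 4 of 78 cytosolic ribosomal genes.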

How the data were processed

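Left ventricular RNA of 16 mice was hybridised to one-colour Agilent arrays, and spot intensities were extracted by the authors with Agilent Feature Extraction 9.5.1.1, per the file headers and the submitters' processing notes. The deposited processed intensity is background-subtracted. The authors also deposited a value table on a log2 scale (22057 probes), used here as an alternative; its column medians run from 9.95 to 9.99, and how it was normalized is not stated in the labels or headers. From the intensities, log2 values minus each array's 75th percentile were computed, leaving out controls and spots marked as outliers, and spots of 1 probe were averaged. Genes well above background on at least 4 arrays were kept, with the probe of highest mean per gene. Probe names were updated through RefSeq accessions (22704 probes) or symbols (10016); 8454 kept the file's name.

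Differences were tested with limma 3.58.1 (R 4.3.3) on 4 group means and sex, with Benjamini-Hochberg adjustment over 15667 genes at 0.05; the method was tested on simulated data. Arrays are separate animals; their number limits the precision. The labels name no batch. The members and lists were chosen with earlier results of these data known. Values in every array are given for the 6 largest falls in WT without overlap, up to 3 leading genes of each other comparison (or the 2 with the smallest p), and genes of a distinct role; other genes are given by counts.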

Additional observations from a re-analysis of the deposited data

Results flagged for a closer look

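Of 100 groups of 4 arrays checked among the named genes, 3 held an array far from the other 3; chance alone gives about 1 in 20. Mrpl9 was lowest, at 1.09, on WT baseline replicate 1. Mrps28 was highest among the WT TAC arrays, at 5.00, on replicate 2. Mrps36 was highest among the WT TAC arrays, at 3.99, also on replicate 2.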

How the results depend on the processing

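Animals could not be paired by replicate number, because the labels number no replicates across groups. Slide, which holds both genotypes, was used as a block for genotype, genotype by TAC and sex; 0 of the 75 genes were called with it, as without. No named result reversed. In WT mice the count of genes called lower (35) was 21 with median scaling, 21 with no filter, 23 with scan day as a block and 6 without slide 3 (fewer arrays); 1 was higher with quantile normalization and with the authors' values. Leaving out 1 array at a time gave 24 to 39. The shares of all genes called lower under these settings are not given here. In NOS3-TG mice the 2 lower became 0 with median scaling, normexp, no filter, the compared groups alone, scan day as a block, without the 3 arrays of extreme share above background and without slide 3, 1 with slide as a random block, and 4 with the authors' values; leaving out 1 array gave 1 to 7. Over both genotypes the 34 lower became 19 with median scaling, 17 with scan day as a block and 11 without slide 3, and the 1 higher became 2 with quantile normalization or the authors' values and 0 with no filter or without slide 3; leaving out 1 array gave 1 to 2 higher. For genotype at baseline 1 gene was lower with the filter on all arrays and with an intensity trend. The cause was not tested. Median scaling moved the share of higher calls among all called genes from 38.3% to 49.97% in WT mice, from 54.7% to 74.5% in NOS3-TG mice, from 43.8% to 57.4% over both and from 45.7% to 20.4% for sex. The alternatives on scan day, slide 3 and the 3 arrays were chosen after seeing the data.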
